A study of Mus musculus with 18 samples.

Results

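The genes examined here encode the receptors of endocannabinoids and the enzymes that make and degrade these lipids. The set was a list of 10 names, namely the receptor genes Cnr1, Cnr2 and Gpr55 and the enzyme genes Napepld, Faah, Dagla, Daglb, Mgll, Abhd6 and Abhd12, out of 14411 genes with a row in the mouse embryonic stem cell (ESC) table or the epiblast-like cell (EpiLC) table. Of the 10, 6 had a row in both tables, 1 (Cnr1) had a row in the EpiLC table only, and 3 (Cnr2, Gpr55 and Mgll) had a row in neither. The study asked how exposure to Δ9-tetrahydrocannabinol (Δ9-THC), a plant cannabinoid that binds the receptor encoded by Cnr1, changes the transcriptome of embryonic cells on the way to germ cells. Poly(A) RNA was sequenced from cells of both kinds, given either Δ9-THC at 100 nM or the ethanol vehicle alone, with 3 libraries labelled as biological replicates in each of the 4 groups. The cells were BVSC mouse ESCs, which carry the reporters Blimp1::mVenus and Stella::ECFP in every group. ESCs were kept in the naive state with 2 kinase inhibitors and LIF. EpiLCs were induced from them with activin A, bFGF and knockout serum replacement while exposure went on. Exposed EpiLCs thus came from ESCs already exposed and had the longer exposure. Cell type, length of exposure and the separate adjustment of each table cannot be told apart where responses of EpiLCs and ESCs are compared. A female and a male clone are described in the study's methods, and the labels of these libraries name neither.

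Endocannabinoids are lipid messengers that cells make on demand from membrane lipids. Anandamide belongs to the N-acylethanolamines, which the phospholipase D encoded by Napepld releases from their membrane precursors and which the hydrolase encoded by Faah degrades. The other main endocannabinoid, 2-arachidonoylglycerol, is made by the diacylglycerol lipases of Dagla and Daglb and is broken down by the lipases of Mgll, Abhd6 and Abhd12. Both lipids bind the CB1 receptor of Cnr1 and the CB2 receptor of Cnr2, which couple to inhibitory G proteins, and the receptor of Gpr55 responds mainly to lysophosphatidylinositol. CB1 is best known from neurons and CB2 from immune cells.

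The values are CPM, the adjusted counts of the deposited tables divided by library sizes that were scaled by the trimmed mean of M-values (TMM). The 12 libraries held between 23427551 and 32096698 adjusted counts. The lowest total of any gene with a row was 82 adjusted counts over the 6 ESC libraries and 80 over the 6 EpiLC libraries, so a member without a row is not shown to be silent. Vehicle and Δ9-THC libraries with the same replicate number were not independent of each other, since over all genes they deviated from their group means in opposite directions. The main tests have no block for the replicate number, and with such a block the 906 genes called in ESCs became 5. The standard errors and p-values rest on the spread left after the authors' batch adjustment, which in ESCs lay below counting error for all 6 members in both groups, and the part of the adjustment in this was not tested. The naive markers Esrrb and Klf4 were 31.6-fold and 78.1-fold higher in vehicle ESCs than in vehicle EpiLCs, and the formative markers Pou3f1 and Otx2 were 38.3-fold and 13.7-fold higher in vehicle EpiLCs. Fgf5, a further formative marker, had a row in the EpiLC table alone. Of 10 markers of other lineages, 2 had a row in ESCs and 5 in EpiLCs. Sox1 and Col1a1 had a row in both, at 12.6 and 1.83 CPM in vehicle EpiLCs. Sox1 was 2.77-fold higher in vehicle EpiLCs and Col1a1 2.29-fold higher in vehicle ESCs. Pax6 (3.23 CPM in vehicle), Rbfox3 (1.02) and Mixl1 (1.87) had a row in EpiLCs alone. The neuronal marker Dcx, the endoderm markers Gata6, Sox17 and Foxa2 and the blood cell marker Ptprc had a row in neither table.

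The sequence before the start site is shown for Cnr1, the member with a row in EpiLCs alone, and for the members of both tables that differed most in level between the cell types, Napepld, the higher in ESCs, and Faah, the higher in EpiLCs. Each run is the 250 bases upstream of a RefSeq start on GRCm38.p6, 5′ to 3′ on the strand of the gene, with the GC box GGGCGG, or its reverse complement, in capitals. The windows are chr4:33924014-33924263 on the plus strand for Cnr1, chr5:21701623-21701872 on the minus strand for Napepld and chr4:116017925-116018174 on the minus strand for Faah.
Cnr1: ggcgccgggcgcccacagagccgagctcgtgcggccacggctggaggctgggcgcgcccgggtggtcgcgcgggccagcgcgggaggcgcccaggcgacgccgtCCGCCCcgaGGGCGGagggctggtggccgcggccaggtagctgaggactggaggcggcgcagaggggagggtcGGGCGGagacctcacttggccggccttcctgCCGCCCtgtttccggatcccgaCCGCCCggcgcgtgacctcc
Napepld: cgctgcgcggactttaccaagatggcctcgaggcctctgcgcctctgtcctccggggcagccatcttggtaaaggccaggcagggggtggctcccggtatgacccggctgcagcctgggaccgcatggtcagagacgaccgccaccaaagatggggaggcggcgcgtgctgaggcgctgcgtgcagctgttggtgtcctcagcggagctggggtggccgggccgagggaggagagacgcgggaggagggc
Faah: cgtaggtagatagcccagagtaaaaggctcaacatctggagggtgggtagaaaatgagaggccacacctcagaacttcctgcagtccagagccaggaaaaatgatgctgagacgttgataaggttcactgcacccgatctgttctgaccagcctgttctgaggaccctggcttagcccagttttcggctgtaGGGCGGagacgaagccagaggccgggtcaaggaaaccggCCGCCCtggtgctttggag
The Cnr1 window held 36 CG dinucleotides, more than 97.4% of 32851 RefSeq promoter windows of this length, whose median was 6. The Napepld window held 21 and the Faah window 9, which exceeded 83.7% and 59.7% of the windows. GC boxes on either strand numbered 5 at Cnr1, 2 at Faah and 0 at Napepld, and 32.7% of all windows held at least 1. Cnr1 has 2 further RefSeq starts, of which the window chr4:33924394-33924643 held 28 CG dinucleotides and the window chr4:33926130-33926379 held 5, both with 0 GC boxes. Matches of this kind describe the letters of the window and not the binding of a factor. The other members with a RefSeq window were Cnr2, Gpr55, Mgll, Daglb and Abhd6.

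Cnr1 (ENSMUSG00000044288, GRCm38 chromosome 4, 33924593 to 33948831, plus strand) was the sole receptor gene of the list with a row, and its level in EpiLCs was low. Its adjusted counts in the vehicle EpiLC libraries were 66, 89 and 60, which is 2.27, 2.80 and 2.66 CPM. In the Δ9-THC libraries they were 89, 72 and 89, or 3.47, 2.83 and 3.00 CPM. All exposed libraries lay above all vehicle libraries, but the highest vehicle and the lowest exposed library were close together. The means were 2.57 ± 0.27 CPM in vehicle and 3.10 ± 0.33 CPM in Δ9-THC (SD, n = 3), with a log2(fold-change) of 0.27 (95% interval −0.05 to 0.59) that did not pass the test (edgeR, unadjusted p = 0.0895, adjusted p = 0.409). The spread between the vehicle libraries was 10.7% of the mean, and the counting error at its mean of 71.7 counts was 11.8%.

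The vehicle level of Cnr1 exceeded that of 15.4% of the genes of the EpiLC table by CPM and of 7.65% by CPM per kb of exon. Among the 1307 genes with a row in EpiLCs and none in ESCs, whose median was 1.54 CPM, Cnr1 stood above 70.3%. The 6 EpiLC libraries summed to 465 adjusted counts of Cnr1. No value for ESCs can be given, and the change of Cnr1 between the cell types has no fold. By western blot of membrane proteins, the study found the same level of CB1 on the surface of EpiLCs and ESCs. It also reports that the CB1 blocker rimonabant abolished the rise in ESC number with Δ9-THC, at the dose sequenced here. The missing ESC row of Cnr1 thus does not show that the receptor is absent from ESCs. The genes whose centred log2 CPM profile over the 6 EpiLC libraries lay nearest to that of Cnr1 were Myc, Rgs9bp and Fnip2, at Euclidean distances of 0.041, 0.045 and 0.045 among 13717 genes. All 6 points share their library totals with the other genes and were adjusted together.

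Cnr2 (GRCm38 chromosome 4, 135895394 to 135920207, plus strand) and Gpr55 (chromosome 1, 85938318 to 85961007, minus strand) had no row in either cell type. Their values in these libraries were not analysed here, and a level under the filter of the tables cannot be told apart from no expression.

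**Figure D1:**
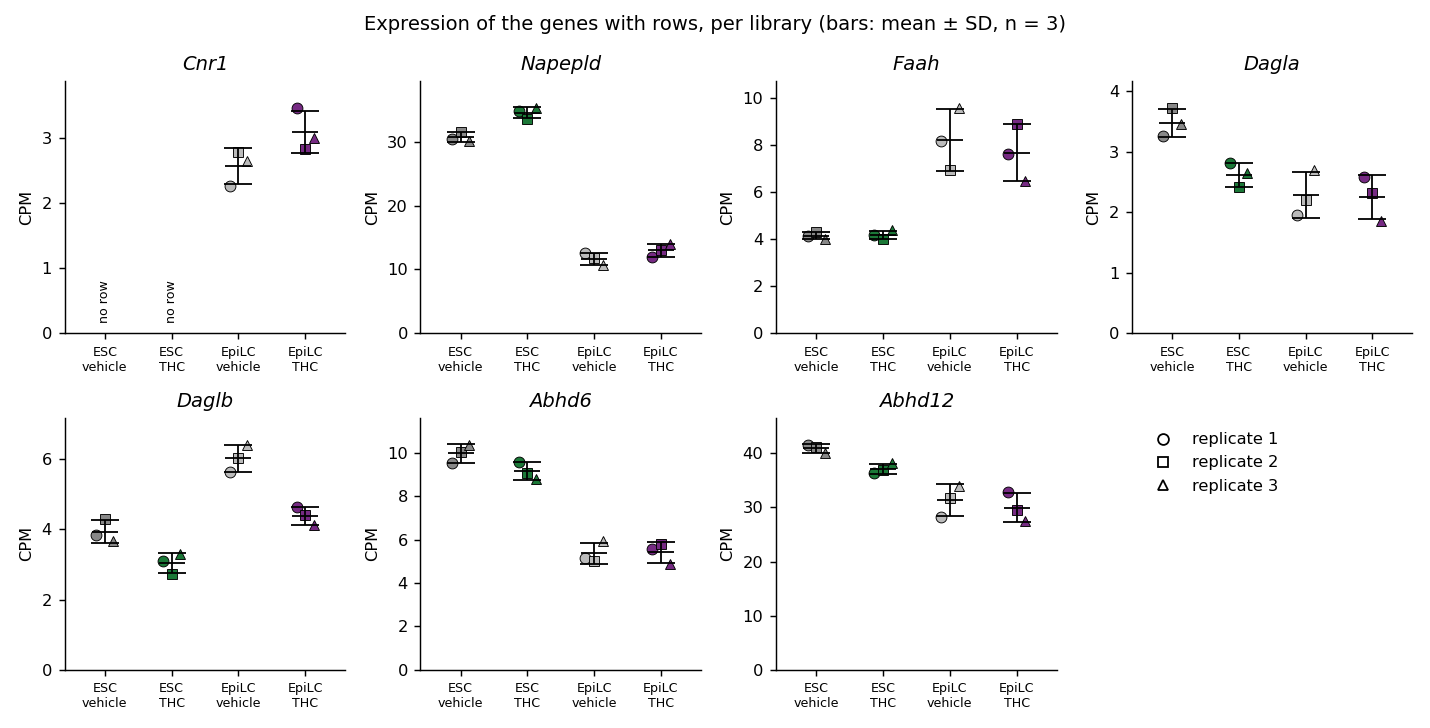
CPM of each of the 7 genes with a row, by library, in vehicle and Δ9-THC ESCs and EpiLCs. Points are libraries, with a marker for each replicate number, and bars are the mean ± SD of 3 libraries. Napepld, Abhd6 and Abhd12 lie higher in all ESC libraries and Faah in all EpiLC libraries, and Daglb lies lower with Δ9-THC in both cell types.

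The enzymes of N-acylethanolamine turnover had rows in both cell types, Napepld with the higher values in ESCs and Faah in EpiLCs. Napepld (ENSMUSG00000044968, chromosome 5, 21662901 to 21701396, minus strand) had 30.4, 31.6 and 30.2 CPM in vehicle ESCs. With Δ9-THC the ESC libraries had 34.9, 33.7 and 35.3 CPM. Every exposed library was above every vehicle library, and the libraries of a group lay close to each other. Napepld rose with Δ9-THC in ESCs, from 30.8 ± 0.76 to 34.6 ± 0.87 CPM (SD, n = 3), a log2(fold-change) of 0.17 with a standard error of 0.04 and a 95% interval of 0.08 to 0.26 (edgeR quasi-likelihood test, Benjamini-Hochberg adjusted p = 0.0493). It was the sole member called in ESCs, 1 of 6, where 6.91% of the 13104 genes of the table were called. Its adjusted p lay just inside the threshold and ranged from 0.0493 to 0.929 over 14 other ways of processing, with 0.482 where the replicate number was a block. Napepld passed in 2 of the 14, which changed only the count filter and tested 13104 and 13094 genes, against 13104 in the main fit. Its log2(fold-change) ranged from 0.11 to 0.19 over all 14 and from 0.16 to 0.19 without any 1 library, fits in which at most 1 of all 13104 genes was called.

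In EpiLCs Napepld had 12.50, 11.75 and 10.62 CPM in vehicle and 12.004, 13.03 and 14.04 CPM in Δ9-THC. The groups overlapped through the highest vehicle library, which lay above the lowest exposed library. The log2(fold-change) was 0.16, nearly that of ESCs, but its standard error of 0.10 was larger (95% interval −0.07 to 0.39, edgeR adjusted p = 0.476). The difference between the responses of EpiLCs and ESCs, tested as an interaction over 12 libraries, was 0.01 in log2 (edgeR adjusted p = 0.989).

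Faah (ENSMUSG00000034171, chromosome 4, 115967145 to 116017926, minus strand) had 4.11, 4.30 and 3.99 CPM in vehicle ESCs and 4.15, 4.02 and 4.36 CPM in Δ9-THC ESCs. The groups covered nearly the same range. The log2(fold-change) was 0.01, with a 95% interval of −0.16 to 0.19 (edgeR adjusted p = 0.964). In EpiLCs it had 8.17, 6.91 and 9.56 CPM in vehicle and 7.60, 8.89 and 6.48 CPM in Δ9-THC. These groups overlapped as well, with a log2(fold-change) of −0.10 and a 95% interval of −0.49 to 0.29 (edgeR adjusted p = 0.815). The spread of Faah between libraries was wider in EpiLCs, at 16.1% of the mean in vehicle against 3.83% in vehicle ESCs, where the counting errors were 6.67% and 9.05%.

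The pair of diacylglycerol lipases, which make 2-arachidonoylglycerol, had lower values in the exposed ESCs without passing the test. Dagla (ENSMUSG00000035735, chromosome 19, 10245265 to 10304877, minus strand) had 3.26, 3.72 and 3.46 CPM in vehicle ESCs and 2.81, 2.41 and 2.64 CPM in Δ9-THC ESCs. All exposed libraries were below all vehicle libraries. The log2(fold-change) of −0.41 (SE 0.10, 95% interval −0.64 to −0.18) was the furthest from 0 of the 6 members in ESCs and missed the threshold (edgeR, unadjusted p = 0.00434, adjusted p = 0.0546). In EpiLCs Dagla had 1.96, 2.20 and 2.70 CPM in vehicle and 2.57, 2.32 and 1.86 CPM in Δ9-THC. These groups overlapped over most of their range, and the log2(fold-change) was −0.02 with a 95% interval of −0.45 to 0.41 (edgeR adjusted p = 0.973). The responses of EpiLCs and ESCs differed by 0.41 in log2 (95% interval −0.05 to 0.87), which did not pass the test (edgeR, unadjusted p = 0.0766, adjusted p = 0.422).

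Daglb (ENSMUSG00000039206, chromosome 5, 143464584 to 143505942, plus strand) was the sole member whose exposed and vehicle libraries stood apart in the same direction in both cell types. In ESCs it had 3.84, 4.30 and 3.67 CPM in vehicle and 3.10, 2.74 and 3.31 CPM in Δ9-THC. In EpiLCs the values were 5.63, 6.03 and 6.42 CPM in vehicle and 4.64, 4.41 and 4.12 CPM in Δ9-THC. Every exposed library was below every vehicle library of its cell type, with a wider gap in EpiLCs. The log2(fold-change) was −0.37 (SE 0.11, 95% interval −0.63 to −0.12) in ESCs and −0.46 (SE 0.10, 95% interval −0.69 to −0.22) in EpiLCs. Neither passed the test over all genes (edgeR, adjusted p = 0.0794 and 0.171, unadjusted p = 0.0107 and 0.00274). In a single fit of all 12 libraries the EpiLC value of Daglb passed, with an adjusted p of 0.0394, the lowest over 14 alternatives that reached up to 1.00. The responses of EpiLCs and ESCs differed by −0.07 in log2 (edgeR adjusted p = 0.902). Of the exonic bases of Daglb, 24.1% are shared with Rac1, and in the counting mode of the authors reads that touch such bases are counted for neither gene.

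Of the hydrolases of 2-arachidonoylglycerol, Abhd12 had the highest level per kb of all members in every group. Mgll (chromosome 6, 88724412 to 88828360, plus strand), which encodes the main such hydrolase of brain, had no row in either table. Abhd12 (ENSMUSG00000032046, chromosome 2, 150832493 to 150904741, minus strand), known also as a lysophosphatidylserine lipase, had 41.6, 41.2 and 40.0 CPM in vehicle ESCs and 36.3, 36.9 and 38.2 CPM in Δ9-THC ESCs. The exposed libraries were all below the vehicle libraries. The log2(fold-change) of −0.14 (SE 0.04, 95% interval −0.23 to −0.06) missed the threshold (edgeR, unadjusted p = 0.00615, adjusted p = 0.0613). In EpiLCs Abhd12 had 28.3, 31.8 and 34.0 CPM in vehicle and 32.8, 29.5 and 27.5 CPM in Δ9-THC. The groups overlapped over most of their range, with a log2(fold-change) of −0.07 and a 95% interval of −0.30 to 0.17 (edgeR adjusted p = 0.793).

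Abhd6 (ENSMUSG00000025277, chromosome 14, 8002902 to 8056763, plus strand), a lipase that degrades 2-arachidonoylglycerol at the inner side of the membrane, had 9.53, 10.03 and 10.38 CPM in vehicle ESCs and 9.59, 9.10 and 8.81 CPM in Δ9-THC ESCs. The highest exposed library lay just above the lowest vehicle library. The log2(fold-change) was −0.12, with a 95% interval of −0.27 to 0.02 (edgeR adjusted p = 0.254). In EpiLCs it had 5.15, 5.03 and 5.93 CPM in vehicle and 5.57, 5.82 and 4.89 CPM in Δ9-THC. The groups overlapped, and the log2(fold-change) was 0.02 with a 95% interval of −0.25 to 0.29 (edgeR adjusted p = 0.958).

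**Figure D2:**
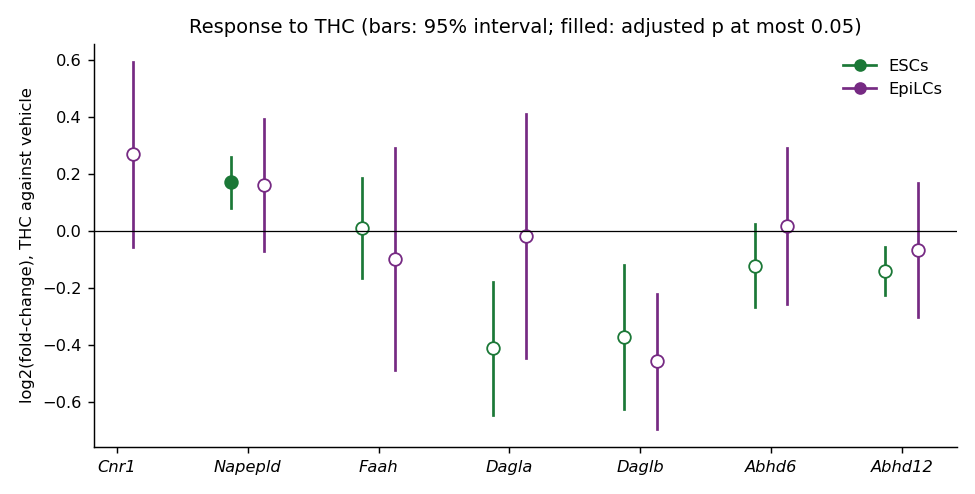
log2(fold-change) of Δ9-THC against vehicle for each gene with a row, in ESCs (green) and EpiLCs (purple). Points are edgeR estimates, bars are 95% intervals, and a filled point has an adjusted p of at most 0.05. Napepld in ESCs, at 0.17, is the sole filled point, and the intervals are wider in EpiLCs for all but Daglb among the 6 genes shown in both.

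Counted over the 6 members in ESCs, 1 was higher and 3 were lower in all exposed libraries without overlap, where 32.6% of all genes of the table did not overlap, 16.7% higher and 15.9% lower. The same 4 had an unadjusted p under 0.05, a mark that 28.7% of all genes passed, 14.9% higher and 13.8% lower. The median log2(fold-change) of the 6 was −0.13, against 0.00 over all genes, and 4 of the 6 values were below 0, where 48.9% of all values were. In EpiLCs 1 of 7 members was higher (Cnr1) and 1 lower (Daglb) without overlap, where 21.8% of all 13717 genes did not overlap, 11.2% higher and 10.6% lower. No member and no other gene was called in EpiLCs by edgeR (0% of the table), while 1 member (Daglb) and 15.1% of all genes had an unadjusted p under 0.05, 8.28% higher and 6.8% lower, and DESeq2 called 71 genes and no member. The median log2(fold-change) of the 7 was −0.02, and 4 of the 7 values were below 0, where 49.3% of all values were. No member had a difference in response between the cell types that passed the test, where 4 of 12410 genes did (0.0322%), and 13.7% of them had an unadjusted p under 0.05.

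The ESC values moved with the base composition of the transcripts. Across 13083 genes, which are not independent replicates, the log2(fold-change) in ESCs had a Spearman correlation of −0.54 with GC content, and in EpiLCs of −0.30 across 13696 genes. With exonic length the correlation was 0.06 in ESCs and 0.34 in EpiLCs. Among the members, Dagla (58.8% GC in its longest transcript) and Abhd12 (55.0%) lie above the median of 49.7% over the ESC genes, and Napepld (45.8%) lies below it. With each library's trend with GC content and exonic length removed, the ESC values became −0.27 for Dagla, −0.07 for Abhd12 and 0.11 for Napepld, while Daglb, at 49.9% GC, stayed at −0.35. None of the 4 was then called, at adjusted p-values between 0.154 and 0.373. Faah (52.4% GC) also lies above the median and Abhd6 (48.4%) below it, and by this fit their ESC values moved away from 0. Faah went from 0.01 to 0.07 and Abhd6 from −0.12 to −0.15, and neither was called (edgeR adjusted p = 0.763 and 0.234). Cnr1 in EpiLCs, at 44.9% GC, had 0.18 by the same fit.

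Marker genes were also compared between the exposures in ESCs, where 6.91% of all genes were called. Of the 5 formative markers with a row in ESCs, Pou3f1 fell by 0.96 and Sox3 fell by 0.40 on the log2 scale (edgeR adjusted p = 0.0265 and 0.0498), while Otx2 was higher in all exposed libraries with a log2(fold-change) of 0.22 that did not pass (edgeR adjusted p = 0.122). Lef1 had a value of 0.12 and Dnmt3b of −0.04 (edgeR adjusted p = 0.628 and 0.633). In a single fit of all 12 libraries the ESC value of Pou3f1 passed and that of Sox3 did not (edgeR adjusted p = 0.0294 and 0.119). With a replicate block 5 genes of the ESC table were called, and with GC and length offsets 2. The values of Pou3f1 and Sox3 in those fits are not given here. The summed level of the list, most of it Dnmt3b with 76.9 CPM in vehicle, ran from 88.1 to 96.0 CPM in vehicle and from 86.6 to 93.8 CPM in Δ9-THC. None of the 7 naive markers was called, and their sum ran from 4269 to 4567 CPM in vehicle and from 4209 to 4494 CPM in Δ9-THC. The sum of the 2 markers of other lineages with a row ran from 7.61 to 9.57 CPM and from 7.30 to 9.30 CPM. In EpiLCs no marker was called. All 7 naive markers had values above 0 there, with a median of 0.19, and of the formative markers 2 lay above and 4 below 0. Of all EpiLC values 49.3% were below 0. Whether these markers have a part in the values of Napepld, Dagla, Daglb and Abhd12 was not tested. In bulk RNA a smaller share of cells that express a gene and less of its RNA per cell cannot be told apart.

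The levels of the members were also compared between the cell types. In vehicle, Napepld was 2.64-fold higher in ESCs than in EpiLCs, a difference in mean log2 CPM of −1.40, with −1.41 in Δ9-THC. Abhd6 was 1.85-fold and Abhd12 1.31-fold higher in vehicle ESCs. Faah was 1.95-fold higher in vehicle EpiLCs, and its difference of 0.97 in log2 was 0.85 in Δ9-THC. For these 4 of 6 members no EpiLC library overlapped with any ESC library over all 12, where 60.7% of the 12410 genes of both tables did not overlap, 29.2% higher and 31.5% lower in EpiLCs. Daglb was 1.52-fold higher in vehicle EpiLCs and Dagla 1.52-fold higher in vehicle ESCs. Daglb separated the cell types within vehicle and within Δ9-THC but not over all 12 libraries, and Dagla separated them in vehicle alone, where its difference in mean log2 CPM was −0.60, against −0.22 in Δ9-THC.

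The size of the Napepld difference exceeded that of 87.9% of the genes of both tables, that of Faah 77.5% and that of Abhd12 42.0%. Those of Abhd6, Daglb and Dagla exceeded 74.5%, 59.8% and 59.3%. The genes whose centred profile over the 12 libraries lay nearest to that of Napepld were St3gal4 and 4930502E18Rik, at Euclidean distances of 0.17 and 0.20 among 12410 genes. Whether these genes vary with Napepld was not tested. The tables of ESCs and EpiLCs were adjusted separately by the authors, so cell type and table cannot be told apart and no test was made of these levels.

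**Figure D3:**
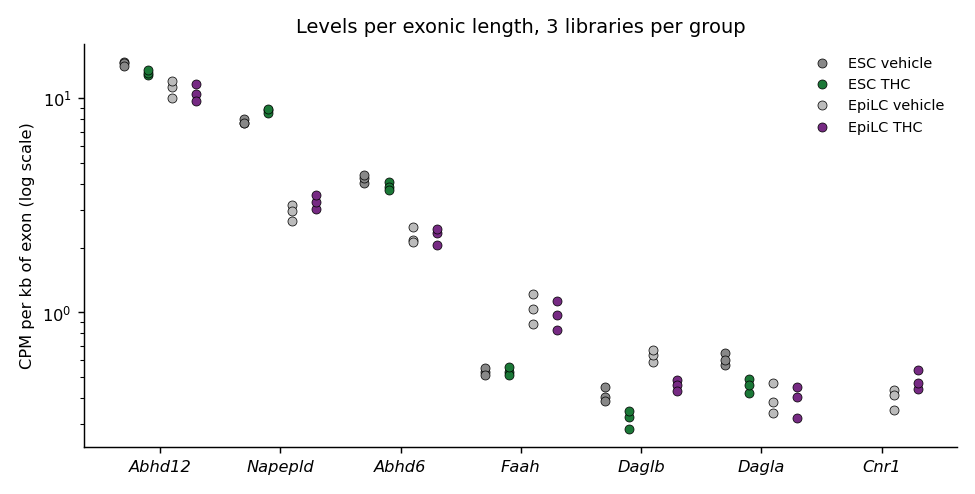
CPM per kb of exon (log scale) for the 7 genes with a row, in the 3 libraries of each group. Abhd12 is the highest in every group, between 10.6 and 14.5 CPM per kb in the mean, and in vehicle EpiLCs Cnr1 and Dagla are the lowest, at 0.399 and 0.398 CPM per kb.

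Levels of different genes were compared as CPM per kb of merged exon. In vehicle ESCs the order was Abhd12 (14.5 CPM per kb), Napepld (7.78), Abhd6 (4.22), Dagla (0.606), Faah (0.528) and Daglb (0.412), and no neighbours overlapped over the 3 libraries. In Δ9-THC ESCs Faah (0.533) stood above Dagla (0.456), again without overlap, and the order was otherwise the same. In vehicle EpiLCs the order was Abhd12 (11.1), Napepld (2.94), Abhd6 (2.27), Faah (1.05), Daglb (0.630), Cnr1 (0.399) and Dagla (0.398), of which only Cnr1 and Dagla overlapped. In Δ9-THC EpiLCs Cnr1 (0.481), Daglb (0.459) and Dagla (0.391) were the lowest, and each overlapped with its neighbour. Within the N-acylethanolamine pair, Napepld was above Faah in every group, and within the diacylglycerol lipases Dagla had the higher mean in ESCs and Daglb in EpiLCs. Exons of all annotated transcripts entered the length, and a gene that uses a short form would be ranked too low. With the length of Daglb cut to the 7.26 kb shared with no other gene, a choice made after its values were seen, its level was 0.543 CPM per kb in vehicle ESCs and overlapped with both Dagla and Faah. By this length Daglb overlapped with Dagla in Δ9-THC ESCs (0.421) and with Faah in vehicle EpiLCs (0.831), and it lay above Cnr1 without overlap in Δ9-THC EpiLCs (0.604).

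Around the members, 80 genes of 5 related lists were counted, of which 60 had a row in ESCs and 61 in EpiLCs. In ESCs 4 of these 60 were called higher and 8 lower, where 3.37% and 3.55% of all genes were. Their median log2(fold-change) was −0.08, against 0.00 over all genes. In EpiLCs 0 of 61 were called by edgeR, 5 higher and 4 lower genes had an unadjusted p under 0.05, and the median was −0.01. Of all EpiLC genes 0% were called, and 8.28% higher and 6.8% lower had such an unadjusted p.

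Among 12 related receptors, 4 had a row in ESCs, and Trpv2 and Ppard were called lower there. Trpv2, a cation channel that cannabinoids can open, fell by 0.69 in log2 with a standard error of 0.15 (edgeR adjusted p = 0.0484). Ppard, a nuclear receptor of fatty acids, fell by 0.19 (edgeR adjusted p = 0.0498). In EpiLCs Trpv2 had a log2(fold-change) of 0.11 (edgeR adjusted p = 0.743), and its responses in EpiLCs and ESCs differed by 0.82 (edgeR, unadjusted p = 0.00321, adjusted p = 0.141). Trpv1, Gpr18, Gpr119, Gpr6, Gpr12, Ppara and Pparg had a row in neither cell type, Gpr3 in EpiLCs alone and Trpa1 in ESCs alone.

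Of 18 other enzymes of N-acylethanolamines and monoacylglycerols, 13 had a row in ESCs, where 2 were called lower and 11 had a value below 0. Gdpd1, a lysophospholipase D that can release N-acylethanolamines, fell by 0.47 with a standard error of 0.06 (edgeR adjusted p = 0.0283). Pnpla2, the lipase that opens the breakdown of stored triglyceride, fell by 0.19 (edgeR adjusted p = 0.0447). In EpiLCs none was called, and Gdpd1 had a value of 0.25 (edgeR adjusted p = 0.283). Phospholipase C isoforms, which release the diacylglycerol that Dagla and Daglb use, had 9 of 10 rows in ESCs and all 10 in EpiLCs, and none was called. Plcd3 had the smallest p of them in ESCs, with −0.26 (edgeR adjusted p = 0.0813), and Plcb4 in EpiLCs, with 0.26 (edgeR adjusted p = 0.204).

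Of 25 genes for the coupling of CB1 and its accessory proteins, 21 had a row in each cell type. Cnrip1, which encodes a protein that binds the tail of CB1, had a row in neither, and Sgip1, which encodes a further CB1 partner, had one in EpiLCs alone, as Cnr1 did. In ESCs Gnai3, an inhibitory G protein subunit, and Gnaq rose by 0.14 and 0.18 on the log2 scale (edgeR adjusted p = 0.0304 and 0.0498). Gna11 fell by 0.19, the receptor kinase gene Grk2 fell by 0.17 and the adenylyl cyclase gene Adcy3 fell by 0.32 (edgeR adjusted p = 0.0283, 0.0357 and 0.0447). In EpiLCs Gnao1, an inhibitory G protein subunit, had the smallest p of the list, with 0.44 (edgeR adjusted p = 0.172). Arrb1, which encodes a β-arrestin that stops receptor signalling, was 9.01-fold higher in vehicle EpiLCs than in vehicle ESCs, without overlap over 12 libraries.

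Of 15 genes for lipid carriers and the handling of arachidonate, the fatty acid of both endocannabinoids, 13 had a row in each cell type. In ESCs Ptges3, a co-chaperone also named as a prostaglandin E synthase, rose by 0.28 and the acyl-CoA synthetase gene Acsl3 rose by 0.13 (edgeR adjusted p = 0.0278 and 0.0426). The desaturase gene Fads1, whose enzyme makes arachidonate, fell by 0.14 (edgeR adjusted p = 0.0484). In EpiLCs none was called, and Ptges2 had the smallest p, with −0.29 (edgeR adjusted p = 0.250). The carrier gene Fabp3 was 7.53-fold higher in vehicle ESCs and Fabp5, which carries anandamide within the cell, 3.32-fold higher in vehicle EpiLCs, both without overlap over 12 libraries. The prostaglandin synthase genes Ptgs1 and Ptgs2 had a row in neither cell type. All 12 calls of these lists in ESCs were lost in the fits with GC content and length or with the replicate block, and in each fit that left out 1 library.

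**Figure D4:**
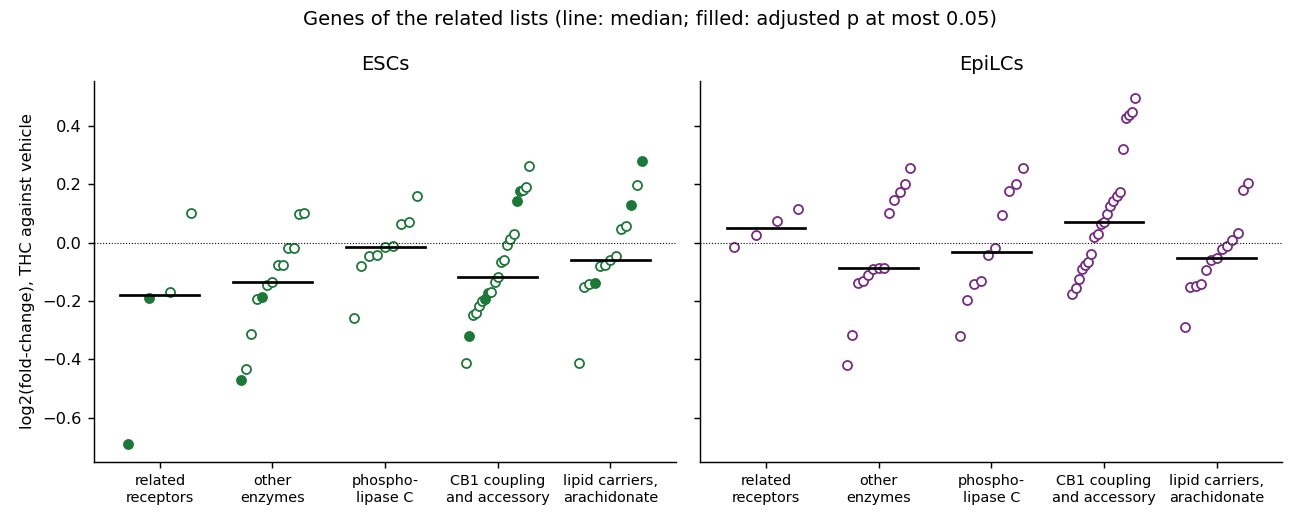
log2(fold-change) of Δ9-THC against vehicle for the genes of the 5 related lists with a row in ESCs (left) and in EpiLCs (right). Each point is a gene, in order of value within its list, the line is the median, and filled points have an adjusted p of at most 0.05. The 12 filled points are all in ESCs, 4 above and 8 below 0, and the EpiLC panel has none.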

How the data were processed

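RNA was measured in 12 libraries of ESCs and EpiLCs. The authors aligned reads with STAR, counted uniquely mapped reads per gene with HTSeq (union mode, without strand), removed genes with low counts and adjusted the counts with ComBat-seq, whose batches are not named in the sources used here. The deposited tables hold these adjusted counts, 1 table per cell type, not scaled for library size, and 0 columns were left unused. The 6 PGCLC libraries were not analysed here. Libraries were prepared with either of 2 kits, and which library had which is not given in the sources used here.

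Exposures were compared within each table with edgeR 4.0.16 in R 4.3.3 (quasi-likelihood test, TMM, total above 10 counts, Benjamini-Hochberg adjustment over all genes, threshold 0.05), and cell types by an interaction over 12 libraries and 12410 genes. Counts were simulated with 200 genes changed by 1 in log2. Of these genes edgeR recovered 97.5% for ESCs (13104 genes), 98% for EpiLCs (13717 genes) and 92% for the interaction (12410 genes). False calls made up 2.5%, 5.31% and 3.16% of the calls in that order. These shares belong to the simulated counts. Whether they hold for the real libraries, where those of the same number were not independent, was not tested. The log2(fold-change) of every member was smaller in size than 1, and recovery at such sizes was not tested. Log2 CPM used a prior count of 2. Counting error is the inverse square root of the mean count, and covers counting alone. Alternatives were RLE normalization, 2 other count filters, a replicate block, spline offsets for GC content and length, DESeq2 1.42.0, 1 fit of all 12 libraries, and leaving out each library, and, chosen after seeing the data, levels over exonic bases shared with no other gene. Members were named in full. Of each related list, genes called (up to 5 by smallest p), or else the gene with the smallest p, were named, with the genes nearest in profile to Cnr1 and to the member that differed most between cell types. Of the latter genes, 1 is not reported here. Genes named for a missing row or for their level between cell types, such as Arrb1, Fabp3 and Fabp5, were picked once values were known. Members and lists were chosen with earlier results of these data known. Positions and lengths come from GENCODE M21 on GRCm38. Both mm10 and GRCm39 are named in the study as the genome, so the positions serve to describe genes only.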

Additional observations from a re-analysis of the deposited data

Results flagged for a closer look

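Gdpd1, a lysophospholipase D of N-acylethanolamine synthesis, was lower in all Δ9-THC libraries of ESCs, with a log2(fold-change) of −0.47, and higher in all Δ9-THC libraries of EpiLCs, with 0.25. Its responses in EpiLCs and ESCs differed by 0.74 (95% interval 0.48 to 1.00), just outside the threshold (edgeR interaction test over 12 libraries, unadjusted p = 4.6e-05, adjusted p = 0.0526).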

How the results depend on the processing

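Among alternative values for the log2(fold-change) of members, 153 kept direction and side of the threshold, 12 lost the call, 1 gained it and 15 changed sign. DESeq2 gave no adjusted p for 3303 genes in ESCs, among them Faah, Dagla and Daglb, which were counted as not called. In ESCs the 906 calls became 5 with a replicate block, 2 with GC and length offsets, 3 with both, 31 in the 12-library fit and 0 to 1 without any 1 library. The 12 calls of related lists became 0, 0, 0, 1 and 0 in that order. The called members (Napepld) numbered 0 in all these and with RLE (adjusted p = 0.0504) or DESeq2 (0.141), within a range of 0.0493 to 0.929. In EpiLCs 0 genes became 71 with DESeq2 and 411 in the 12-library fit, which called 1 member and 4 related genes. The 4 interaction calls became 0 with the block, 133 with DESeq2 and 0 without any 1 library. The causes were not tested.

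Values near 0 changed sign. Faah in ESCs was −0.0041 in the 12-library fit and −0.020 to 0.041 without 1 library, and in EpiLCs −0.23 to 0.022. Dagla in EpiLCs was 0.0080 with the offsets, 0.0060 with the block too, and −0.14 to 0.11 without 1 library. Abhd12 in EpiLCs was 0.0087 with the offsets and 0.0086 with the block too, and Abhd6 −0.047 to 0.094 without 1 library. The interaction ran from −0.054 to 0.065 for Napepld and from −0.21 to 0.023 for Faah.

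Same-numbered vehicle and Δ9-THC libraries deviated from their group means in opposite directions, with correlations of −0.99 to −0.98 over genes in each cell type, against 0.22 to 0.70 for other numbers, so they share more than a number. The mark set for a pairing was a positive correlation. Libraries that deviate in opposite directions cannot meet it, so it does not show them to be unpaired. The main tests have no block. With it Napepld in ESCs had an adjusted p of 0.482. What the batch adjustment did to the spread behind all p-values was not tested. Counting error reached 12.9% for Dagla in Δ9-THC EpiLCs, at a mean of 60 counts.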
